A study of Homo sapiens with 24 samples.

Results

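The 8 genes described here form a group of EYA-, SIX- and DACH-family genes: EYA1, EYA2, EYA3 and EYA4, SIX2, SIX4 and SIX5, and DACH1. Their rows were taken from the table of counts per 1000000 tags (CPM) by Ensembl gene identifier, 8 rows of 43037. No measured value entered that step, but the group was chosen with earlier results of these data known. The paper names EYA4 as a hub gene from co-expression in these same libraries. Levels were read in 24 CAGE-Seq libraries from 4 established glioblastoma cell lines. Each line was held as a “Vec” cellular variant, transduced with Puro-Blank Lentivirus, and as a “WWOX” cellular variant, transduced to overexpress the tumor suppressor WWOX with the GIPZ lentiviral system (the vector pLenti-GIII-CMV-GFP-2A-Puro, whose name gives a CMV promoter). Both variants went through polybrene, starvation medium and puromycin selection of clones, and the number of clones behind a variant is not given in the sources used here. The 8 groups thus were U87MG “Vec” and “WWOX”, T98G “Vec” and “WWOX”, U251MG “Vec” and “WWOX”, and DBTRG-05MG “Vec” and “WWOX”, with 3 biological replicates each. T98G grew in MEM, U87MG and U251MG in EMEM, and DBTRG-05MG in RPMI 1640, so between T98G or DBTRG-05MG and any other line, line and medium cannot be told apart. CAGE counts 1 tag for each capped 5′ end, so the level of a gene does not grow with its length and CPM of different genes were set side by side without a division by length.

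EYA-, SIX- and DACH-family proteins work together in what is known as the retinal determination network, which was described in fly eye development and recurs in vertebrate ear, kidney and muscle. SIX-family proteins are homeodomain factors that bind DNA, EYA proteins are coactivators that bind them and carry a phosphatase domain but no DNA-binding domain, and DACH1 is a corepressor related to the SKI family. In the nervous system DACH1 is known as a marker of neural progenitor cells, and members of the network have been studied in brain tumors as factors that act on growth.

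Depth was 10756072 to 16953689 tags per library (median 14584829), so 3 tags, the limit that a count of 0 allows, corresponded to 0.177 to 0.279 CPM depending on the library, and such limits cover counting error only. In bulk samples of this kind, fewer cells that express a gene and less RNA per cell cannot be told apart. WWOX itself did not overlap between variants in U87MG (33.9 to 40.1 CPM in “Vec” and 61.0 to 66.0 CPM in “WWOX”) and in DBTRG-05MG (20.4 to 22.2 and 28.0 to 32.0 CPM). It overlapped in T98G (34.2 to 57.2 and 45.1 to 61.8 CPM) and in U251MG (31.4 to 36.8 and 17.4 to 56.7 CPM). In the paper, efficient transduction was established on protein by Western blot. Whether tags from the vector were counted at the WWOX gene is not given in the sources used here. An overlap in CPM therefore does not show that overexpression failed. The library labelled U251MG “WWOX” replicate 2 held the 17.4 CPM, below all 3 U251MG “Vec” libraries, and its group was also the least alike (correlations of 0.880 to 0.932 between its libraries, against 0.940 to 0.988 in the other groups), so U251MG results and means over lines are given with it and, where a value moved, also without. Over 9 glioma and astroglial genes the summed level was 918 to 5704 CPM per library, and CD44 alone held 678 to 3520 CPM. In U87MG and T98G, S100B, OLIG2, SOX2 and NES stayed at or below 3.57 CPM. In U251MG, S100B, SOX2 and NES held at least 31.0 CPM, but OLIG2 at most 0.286 CPM. In DBTRG-05MG SOX2 held at least 43.9 CPM, NES 10.3 to 60.5 CPM, S100B 1.30 to 15.1 CPM and OLIG2 at most 0.258 CPM. CHI3L1 held 180 to 820 CPM in U87MG, 23.1 to 148 CPM in T98G, 4.38 to 35.7 CPM in U251MG and at most 1.43 CPM in DBTRG-05MG. VIM lay between 13.5 CPM (T98G) and 71.7 CPM (U87MG) over all lines. Of the defining astrocyte genes, GFAP reached 114 to 3226 CPM in U251MG but at most 11.6 CPM in the other lines. AQP4 was at 0 in U87MG and T98G, at most 0.0686 CPM in U251MG and at most 1.03 CPM in DBTRG-05MG. A list of 9 genes of other cell types summed to 2.67 to 130 CPM, mostly SYT1, MBP and KRT8, and the leukocyte gene PTPRC never exceeded 1 tag.

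Promoter sequences are shown for EYA4, the most abundant member, for EYA3, which had tags in every library, for DACH1, which ranged widely between lines, and for SIX2, which was at or near 0 throughout, so that the letters of genes with many and with hardly any tags can be compared. They are RefSeq promoters on GRCh38.p14, 300 bases each (250 before and 50 after the annotated start), read 5′ to 3′ on the strand of the gene, with matches to the GC box (GGGCGG, or CCGCCC on the other strand) in capitals. The tags were deposited as 1 value per gene, so which start they came from is not given.
EYA4, chr6:133241107-133241406, + strand: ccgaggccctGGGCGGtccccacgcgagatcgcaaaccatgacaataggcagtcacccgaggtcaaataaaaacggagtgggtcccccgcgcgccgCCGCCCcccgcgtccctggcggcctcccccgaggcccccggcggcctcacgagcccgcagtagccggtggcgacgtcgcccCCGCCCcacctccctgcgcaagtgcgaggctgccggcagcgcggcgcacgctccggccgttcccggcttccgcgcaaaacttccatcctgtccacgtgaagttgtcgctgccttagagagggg
EYA3, chr1:28088561-28088860, - strand: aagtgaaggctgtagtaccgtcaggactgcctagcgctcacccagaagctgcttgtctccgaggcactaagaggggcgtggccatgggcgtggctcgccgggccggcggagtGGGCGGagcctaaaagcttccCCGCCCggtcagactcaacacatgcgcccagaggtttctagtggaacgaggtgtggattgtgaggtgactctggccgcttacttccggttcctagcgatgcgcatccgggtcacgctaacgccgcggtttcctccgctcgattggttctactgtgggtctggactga
DACH1, chr13:71867155-71867454, - strand: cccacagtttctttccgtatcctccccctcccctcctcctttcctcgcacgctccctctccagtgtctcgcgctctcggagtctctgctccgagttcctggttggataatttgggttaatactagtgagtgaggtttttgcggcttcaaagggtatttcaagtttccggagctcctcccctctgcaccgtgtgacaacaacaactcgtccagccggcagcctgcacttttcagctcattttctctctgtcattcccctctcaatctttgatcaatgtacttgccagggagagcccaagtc
SIX2, chr2:45009403-45009702, - strand: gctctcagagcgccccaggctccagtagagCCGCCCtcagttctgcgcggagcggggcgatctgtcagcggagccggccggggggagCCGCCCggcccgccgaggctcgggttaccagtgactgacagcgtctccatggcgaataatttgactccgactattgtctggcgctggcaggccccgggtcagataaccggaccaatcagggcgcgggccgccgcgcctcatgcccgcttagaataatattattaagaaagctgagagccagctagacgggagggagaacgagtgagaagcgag

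The EYA4 window was the richest in G and C of the 5 member promoters in the table, with 71.67% GC, 39 CpG pairs and 3 GC boxes, which start at bases -240, -154 and -73 from the annotated start. EYA3 had 61.67% GC, 25 CpG pairs and 2 GC boxes, and SIX2 had 64% GC, 29 CpG pairs and 2 GC boxes, although hardly any SIX2 tag was counted. SIX4 (chr14:60724302-60724601, - strand) had 57.67% GC, 14 CpG pairs and 1 GC box. The DACH1 window had 53% GC, 12 CpG pairs and no GC box, below the median of 58.67% GC over the 34943 promoters of the table. A GC box occurs in 44.87% of all these promoters, a CCAAT box (CCAAT, either strand) in 34.65%, a TATA box (TATAAA, either strand) in 11.57% and the MEF3 core that SIX-family proteins are known to bind (TCAGGTT, either strand) in 3.383%. CCAAT was found in the EYA3, SIX2 and SIX4 windows, and TATAAA and TCAGGTT were found in none of the 5. These matches describe the letters of the windows alone.

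The 4 lines expressed different sets of the 8 genes. EYA3, EYA4, SIX4 and SIX5 had tags in all 24 libraries, whereas EYA1, EYA2 and DACH1 were high in some lines and at or near 0 in others, and SIX2 was found as 1 tag in each of 2 libraries. EYA4 was the most abundant, with 10078 tags over all libraries, against 3508 for EYA3, 2924 for SIX4, 2390 for DACH1, 2380 for EYA1, 1354 for SIX5 and 899 for EYA2. The plot of levels by line and variant shows each library.

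**Figure D1:**
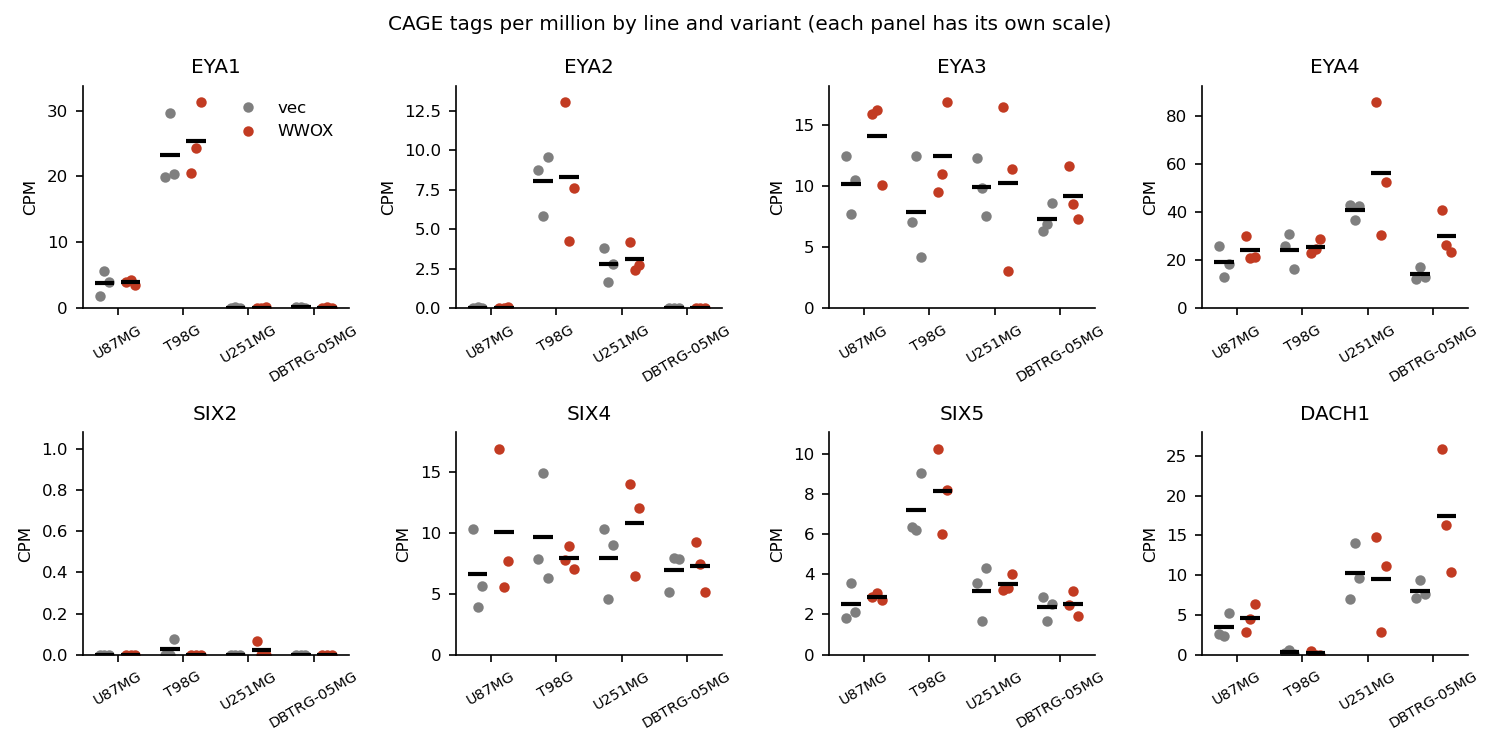
CAGE level (y axis, CPM, a separate linear scale for each gene) of the 8 genes in each line (x axis), with “Vec” libraries in grey, “WWOX” libraries in red and the mean of 3 libraries as a black bar. EYA4 lies between 12.2 and 85.5 CPM over all libraries, whereas EYA1 is near 0 in U251MG and DBTRG-05MG, EYA2 in U87MG and DBTRG-05MG, and DACH1 in T98G.

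The coactivators come first. EYA4 (ENSG00000112319.20; chr6:133240514-133532128, + strand, hg38), whose mutations cause a dominant form of hearing loss, held 25.8, 13.1 and 18.4 CPM in the “Vec” libraries of U87MG, 25.9, 30.8 and 16.2 CPM in T98G, 43.0, 36.8 and 42.3 CPM in U251MG and 12.2, 17.2 and 12.8 CPM in DBTRG-05MG. All U251MG “Vec” libraries lay above those of the other lines, which overlapped one another. From low to high the means stood in the order DBTRG-05MG (14.1 ± 2.72 CPM, SD, n = 3), U87MG (19.1 ± 6.38), T98G (24.3 ± 7.44) and U251MG (40.7 ± 3.40). No 2 neighbors in that order differed past the threshold: U87MG was 0.65 above DBTRG-05MG on the log2 scale (adjusted p = 0.0533), T98G 0.32 above U87MG (adjusted p = 0.363) and U251MG 0.59 above T98G (adjusted p = 0.10). Lines further apart did differ. U251MG exceeded DBTRG-05MG by a log2 difference of 1.57 (95% interval 1.01 to 2.13, adjusted p = 8.19e-05), T98G exceeded DBTRG-05MG by 0.98 (0.42 to 1.54, adjusted p = 0.00561), and U87MG minus U251MG was -0.92 (-1.47 to -0.36, adjusted p = 0.00928). Of these calls, T98G against DBTRG-05MG was lost on CPM as deposited (0.73, adjusted p = 0.0809) and U87MG against U251MG without U87MG “Vec” replicate 2 (-0.72, adjusted p = 0.0652).

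EYA3 (ENSG00000158161.16; chr1:27970344-28088637, - strand), known like the other EYA proteins as a tyrosine phosphatase, was the most even EYA gene. Its “Vec” libraries held 12.4, 7.73 and 10.5 CPM in U87MG, 7.03, 12.5 and 4.20 CPM in T98G, 12.3, 9.87 and 7.57 CPM in U251MG and 6.28, 6.89 and 8.63 CPM in DBTRG-05MG. The ranges of the 4 lines overlapped in every pair. No pair of lines passed the threshold. The log2 differences between “Vec” groups ranged from -0.23 (T98G minus U251MG, 95% interval -0.97 to 0.50) and 0.71 (U87MG minus DBTRG-05MG, -0.03 to 1.44, adjusted p = 0.112), and a 2-fold difference lies inside several of these intervals. When the library labelled U251MG “WWOX” replicate 2 was dropped, through the shared estimate of the spread, U87MG exceeded DBTRG-05MG with an adjusted p of 0.0464.

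EYA1 (ENSG00000104313.20; chr8:71197433-71592025, - strand), the gene of branchio-oto-renal syndrome, was a gene of T98G and, at a lower level, of U87MG. In T98G the “Vec” libraries held 19.9, 29.6 and 20.4 CPM and the “WWOX” libraries 20.5, 24.3 and 31.2 CPM. In U87MG the values were 1.92, 5.64 and 3.93 CPM in “Vec” and 3.98, 4.21 and 3.56 CPM in “WWOX”. All 12 libraries of U251MG and DBTRG-05MG held 3 tags or fewer, at most 0.239 CPM. Every T98G library was thus far above every U87MG library, and these above all the rest. U87MG “Vec” minus T98G “Vec” was -2.53 on the log2 scale (95% interval -3.09 to -1.97, adjusted p = 7.82e-08). The mean of T98G “Vec” (23.3 ± 5.45 CPM) was 95.7-fold the highest CPM that 3 tags make in a U251MG “Vec” library, and 118-fold that of DBTRG-05MG “Vec”. For the mean of U87MG “Vec” (3.83 ± 1.86 CPM) these folds were 15.7 and 19.4. They set a group mean against that level, and single libraries can lie lower, as U87MG “Vec” replicate 1 did at 1.92 CPM. For libraries in which 3 tags were counted they are no lower bound.

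EYA2 (ENSG00000064655.19; chr20:46894624-47188844, + strand), studied in tumors as a coactivator, followed another pair of lines, T98G and U251MG. The T98G libraries held 8.72, 5.83 and 9.57 CPM in “Vec” and 13.0, 4.23 and 7.59 CPM in “WWOX”. The U251MG libraries held 3.81, 1.67 and 2.81 CPM in “Vec” and 4.18, 2.43 and 2.71 CPM in “WWOX”. In DBTRG-05MG all 6 libraries were at 0, and in U87MG 1 tag was found in each of 2 libraries. T98G “Vec” lay above U251MG “Vec” in every library, with a log2 difference of 1.58 (95% interval 0.90 to 2.27, adjusted p = 0.000681). EYA2 entered this test through T98G alone, since no U251MG library reached the filter of 5 CPM; with every gene that had a tag tested instead, the difference was 1.56 (adjusted p = 0.00192). The mean of T98G “Vec” (8.04 ± 1.96 CPM) was 34.7-fold the highest CPM that 3 tags make in a U87MG “Vec” library, and 40.7-fold that of DBTRG-05MG “Vec”. For the mean of U251MG “Vec” (2.76 ± 1.07 CPM) these folds were 11.9 and 14.0, and its single libraries reached down to 1.67 CPM.

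Among the DNA-binding partners, SIX2 (ENSG00000170577.8; chr2:45005182-45009452, - strand), which maintains progenitor cells of the kidney, was found as 1 tag in T98G “Vec” replicate 3 (0.0778 CPM) and 1 tag in U251MG “WWOX” replicate 1 (0.0686 CPM). All other libraries were at 0, and SIX2 was the member of the 8 that did not enter the test. SIX4 (ENSG00000100625.9; chr14:60709539-60724351, - strand), which acts in muscle development, was present in every library between 3.94 and 16.9 CPM, and 22 of 24 libraries reached 5 CPM. Its “Vec” means were 9.70 ± 4.58 CPM in T98G, 7.94 ± 3.02 in U251MG, 6.98 ± 1.56 in DBTRG-05MG and 6.62 ± 3.29 in U87MG. The 4 lines overlapped, and no pair passed the threshold; the log2 differences lay between -0.51 (U87MG minus T98G, 95% interval -1.29 to 0.26) and 0.61 (T98G minus DBTRG-05MG, -0.16 to 1.39).

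SIX5 (ENSG00000177045.10; chr19:45764785-45769252, - strand), which lies beside the myotonic dystrophy gene DMPK, was higher in T98G than in every other line. The T98G libraries held 6.33, 6.20 and 9.03 CPM in “Vec” and 10.2, 6.01 and 8.19 CPM in “WWOX”. “Vec” libraries of the other lines held 1.85, 3.55 and 2.10 CPM in U87MG, 3.57, 1.67 and 4.29 CPM in U251MG and 2.88, 1.67 and 2.50 CPM in DBTRG-05MG. These 3 lines overlapped one another and lay below all T98G libraries. T98G “Vec” exceeded DBTRG-05MG “Vec” by 1.66 on the log2 scale (95% interval 0.98 to 2.33, adjusted p = 0.00027) and U251MG “Vec” by 1.29 (0.62 to 1.96, adjusted p = 0.00355), and U87MG “Vec” minus T98G “Vec” was -1.38 (-2.05 to -0.70, adjusted p = 0.00161). SIX5 too entered the test through T98G alone, the line in which it was high; with every gene that had a tag tested instead, these differences were 1.62 (adjusted p = 0.000808), 1.27 (adjusted p = 0.00865) and -1.39 (adjusted p = 0.00332). The antisense gene DM1-AS overlaps SIX5 and reached 1.12 CPM; how tags were assigned by strand is not given in the sources used here. TARID, on the strand opposite to EYA4, reached 0.445 CPM, and the other overlapping genes with a value had at most 0.0811 CPM.

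DACH1 (ENSG00000276644.5; chr13:71437966-71867204, - strand), the corepressor, had the opposite pattern to EYA1 and SIX5, with its lowest level in T98G. The “Vec” libraries held 2.63, 2.40 and 5.26 CPM in U87MG, 0.211, 0.627 and 0.0778 CPM in T98G (3, 10 and 1 tags), 6.97, 14.1 and 9.71 CPM in U251MG and 7.14, 9.34 and 7.64 CPM in DBTRG-05MG. Among these “Vec” libraries, all of T98G lay below those of the other lines, all of U87MG below those of U251MG and DBTRG-05MG, and the last 2 lines overlapped. T98G “Vec” minus U251MG “Vec” was -3.66 on the log2 scale (95% interval -4.54 to -2.79, adjusted p = 3.36e-07) and T98G minus DBTRG-05MG -3.32 (-4.19 to -2.44, adjusted p = 1.12e-06). U87MG exceeded T98G by 2.37 (1.50 to 3.25, adjusted p = 8.75e-05). With so few tags in T98G the size of these differences rests on the pseudocount, and with 0.1 in place of 0.5 they were -4.73, -4.37 and 3.35. U87MG minus U251MG was -1.29 (-2.16 to -0.41, adjusted p = 0.0186), a call lost with a pseudocount of 0.1 (adjusted p = 0.0778) and without U87MG “Vec” replicate 1 (0.0642), U87MG “Vec” replicate 2 (0.0732) or U251MG “Vec” replicate 2 (0.0810). U87MG minus DBTRG-05MG was -0.94 (-1.82 to -0.07, adjusted p = 0.0745), which passed without U87MG “Vec” replicate 3 (0.0466) or the library labelled U251MG “WWOX” replicate 2 (0.0425), and U251MG minus DBTRG-05MG was 0.34 (-0.53 to 1.22, adjusted p = 0.580).

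Many genes differ between these lines, and the members were read against that background. Of the 12327 genes tested, limma called 39.8%, 38.9% and 44.1% when U87MG “Vec” was set against T98G, U251MG and DBTRG-05MG “Vec”, 32.4% and 41.0% when T98G was set against the latter 2, and 31.6% for the last pair. The members called in the same order of pairs were 4, 4, 1, 4, 5 and 2 of the 7 tested, with EYA1 and EYA2 counted where 1 line was at its limit. These counts are no sign that the group differs between lines more than other genes, since EYA2 and SIX5 passed the filter of 5 CPM in T98G libraries alone, and EYA1 in T98G and 1 U87MG library. The forest plot of “Vec” pairs gives each difference.

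**Figure D2:**
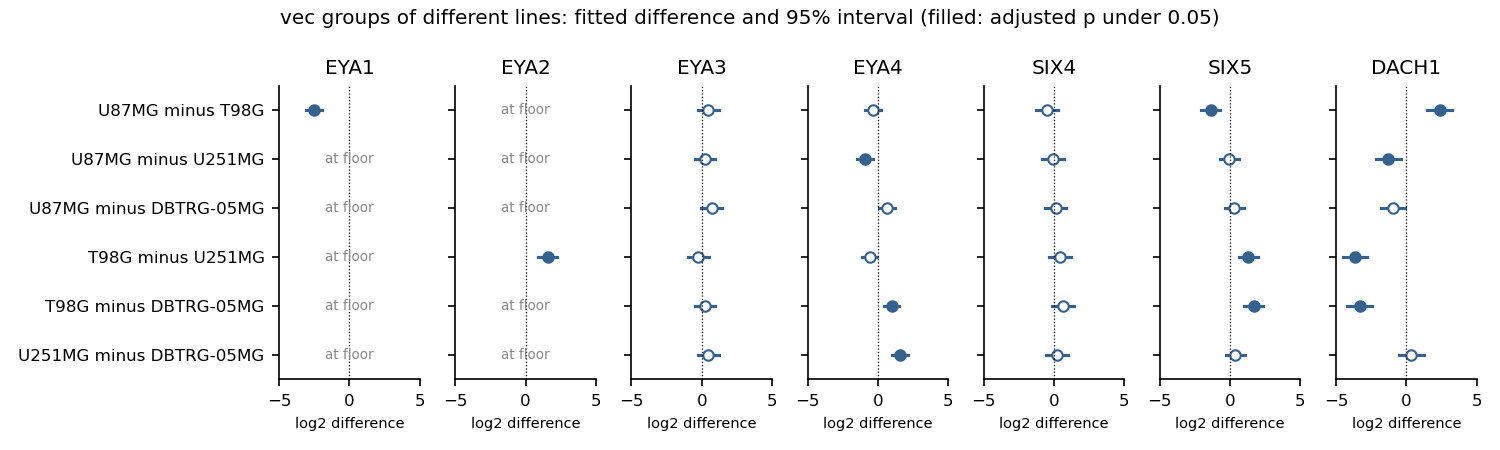
Fitted log2 difference (x axis) between the “Vec” groups of each pair of lines (y axis, first line minus second) for the 7 genes tested, with 95% intervals as bars and filled points where the adjusted p was under 0.05. “At floor” marks pairs in which at least 1 line held 3 tags or fewer in every library, for which no fold was plotted; SIX5 and DACH1 separate T98G from the other lines in opposite directions, and EYA3 and SIX4 have no filled point.

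The make-up of the EYA family differed between lines as these levels do. EYA4 took 76.2% ± 3.81 of all EYA tags in U251MG “Vec” (SD, n = 3), 65.2% ± 5.66 in DBTRG-05MG “Vec”, 56.6% ± 7.50 in U87MG “Vec” and 37.8% ± 5.10 in T98G “Vec”. In T98G EYA1 took nearly as much (36.8% ± 4.13), EYA2 took 13.5% ± 5.83 and EYA3 11.9% ± 3.77, so that all 4 genes were above the limit of 3 tags in T98G, the one line where this held. EYA3 was the second gene in U87MG (30.7% ± 1.37) and DBTRG-05MG (34.0% ± 5.92). Summed over the 4 genes, the EYA level was 63.5 ± 14.3 CPM in T98G “Vec”, 53.4 ± 5.33 in U251MG, 33.2 ± 6.81 in U87MG and 21.5 ± 2.78 in DBTRG-05MG.

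Shares were not tested, since each moves with the others. Outside the 8 genes, SIX3, a forebrain and eye factor, held 2.06 to 3.86 CPM in DBTRG-05MG “Vec”, and SIX6 and the DACH1 paralog DACH2 were at 0 in all libraries.

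**Figure D3:**
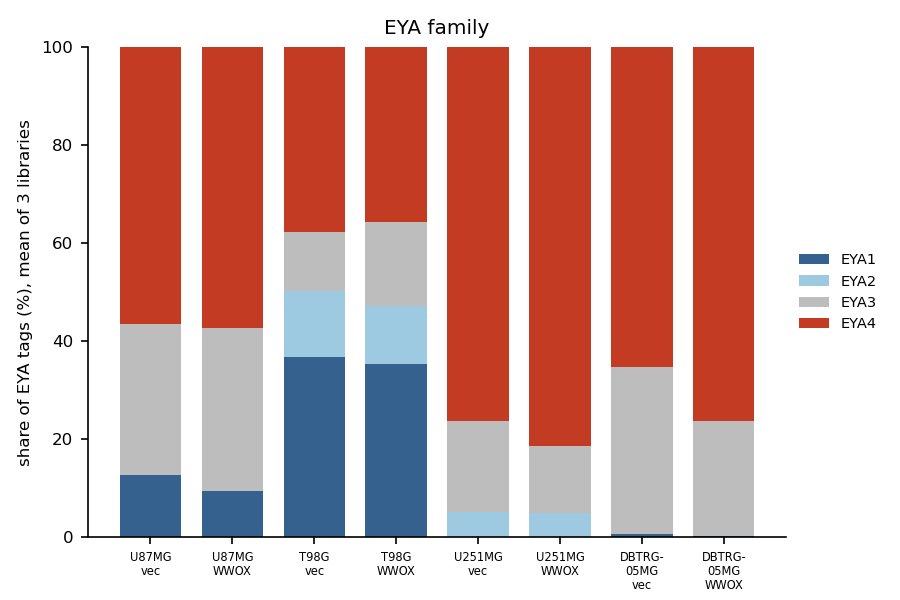
Share of each gene in the summed tags of the 4 EYA genes in the 8 groups (y axis, percent, stacked means of 3 libraries; x axis, line and variant). EYA4 takes the largest part in every group, with EYA1 close behind in T98G (36.8% in “Vec” and 35.3% in “WWOX”).

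The second question was whether WWOX overexpression moved these genes. The “Vec” libraries used here are the same as in the comparisons between lines above. None of the 7 members tested passed the threshold in any line with limma, where the calls made up 1.03% of all genes tested in DBTRG-05MG, 0.308% in U251MG, 1.14% in T98G and 3.21% in U87MG. The count at an unadjusted p under 0.05 was 2 in DBTRG-05MG and 0 in each of the other lines. In DBTRG-05MG 936 of all genes tested (7.59%) reached that level, against 11.5% in U87MG, 11.4% in T98G and 11.6% in U251MG. edgeR and limma-voom also called 0 members in each line, and in DBTRG-05MG 49 and 100 of the 12327 genes tested. Unadjusted, edgeR counted 1 member and 900 genes in DBTRG-05MG, and limma-voom 2 members and 980 genes. DESeq2 called 1 member in DBTRG-05MG, where it called 129 of all genes tested, and 0 members in the other lines. The 2 genes in question were EYA4 and DACH1.

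In DBTRG-05MG EYA4 held 12.2, 17.2 and 12.8 CPM in “Vec” and 40.8, 26.1 and 23.3 CPM in “WWOX”. All 3 “WWOX” libraries lay above all 3 “Vec” libraries, and the means of 14.1 ± 2.72 and 30.1 ± 9.37 CPM differed 2.14-fold. The fitted log2FC was 0.98 (SE 0.269, 95% interval 0.42 to 1.54) with an adjusted p of 0.107, so the difference did not pass over all genes. Under the other settings and tools the log2FC lay between 0.95 and 1.04 and the adjusted p between 0.0442 (DESeq2) and 0.219 (CPM as deposited), with DESeq2 as the one setting that passed. Leaving out libraries moved the log2FC between 0.78, without DBTRG-05MG “WWOX” replicate 1 (adjusted p = 0.516), and 1.16, without DBTRG-05MG “Vec” replicate 2 (adjusted p = 0.0724). An exact permutation of 3 against 3 libraries gave p = 0.1, the smallest it can give.

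DACH1 stood the same way in DBTRG-05MG, with 7.14, 9.34 and 7.64 CPM in “Vec” and 25.9, 16.3 and 10.3 CPM in “WWOX”. The groups did not overlap, but the “WWOX” libraries were wide apart (8.04 ± 1.15 against 17.5 ± 7.85 CPM). The log2FC was 0.93 (SE 0.421, 95% interval 0.05 to 1.80, adjusted p = 0.609), and 0.65 without DBTRG-05MG “WWOX” replicate 1 (adjusted p = 1). That library held the highest value of its group in EYA3, EYA4, SIX4 and DACH1. EYA4 and DACH1 were thus the 2 of 7 members without overlap in DBTRG-05MG, where 19.8% of all genes tested had none. In U87MG, T98G and U251MG 0 members were without overlap, against 17.2%, 16.2% and 10.4% of all genes tested. Genes of other cell types summed to 67.0 to 79.3 CPM in DBTRG-05MG “Vec” and 75.7 to 96.2 CPM in “WWOX”, ranges that overlapped, and their part in these values was not tested.

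In the other lines EYA4 overlapped between variants. The “WWOX” libraries held 29.8, 21.0 and 21.4 CPM in U87MG (log2FC 0.31, 95% interval -0.25 to 0.87, adjusted p = 0.856), 22.96, 24.6 and 28.7 CPM in T98G (0.12, -0.44 to 0.68, adjusted p = 0.923) and 85.5, 30.5 and 52.4 CPM in U251MG (0.35, -0.21 to 0.90, adjusted p = 0.682). In U251MG the spread of the “WWOX” group (SD 27.7 CPM) was wider than in any other group of this gene, and the lowest value came from the library labelled U251MG “WWOX” replicate 2, without which the log2FC was 0.49 (adjusted p = 0.312). Without U251MG “WWOX” replicate 1, the highest, it was 0.080 (adjusted p = 0.966). The fitted value was above 0 in all 4 lines with all libraries, though not in T98G without its “Vec” replicate 3 (-0.0445). The mean of the 4 line effects was 0.44 (95% interval 0.16 to 0.72) with an adjusted p of 0.115. In that comparison limma called 1.73% of all genes tested, none of the members among them. At an unadjusted p under 0.05 limma counted 1 member, EYA4, and 1889 of all genes tested (15.3%). edgeR also counted 1 member at that level, EYA4, and 1709 of all genes tested. The mean for EYA4 passed without U87MG “Vec” replicate 1 (0.50, adjusted p = 0.0454) and with the library labelled U251MG “WWOX” replicate 2 dropped (0.47, adjusted p = 0.0397). An exact two-sided permutation of the labels within lines, over 160000 arrangements, gave an unadjusted p of 0.0152 for EYA4 (smallest possible 1.25e-05). The same permutation gave 0.196 (EYA3) to 0.855 (EYA1) for the other members tested. The paper had already named EYA4 among genes correlated with the variants in these same data, so this p is not independent evidence.

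DACH1 had no common direction. Its “WWOX” libraries held 2.88, 4.55 and 6.44 CPM in U87MG (log2FC 0.35, 95% interval -0.52 to 1.23), 0.465, 0 and 0 CPM in T98G (-0.29, -1.17 to 0.58, from 6 libraries of at most 10 tags) and 14.7, 2.79 and 11.2 CPM in U251MG (-0.32, -1.19 to 0.56). The T98G value depended on the tool and on single libraries, with -1.74 by limma-voom, -0.65 without “WWOX” replicate 1 and -0.048 without “Vec” replicate 2. All these groups overlapped with “Vec”, and the U251MG value turned to 0.15 (adjusted p = 0.892) without the library labelled “WWOX” replicate 2. The mean over the lines was 0.17 (95% interval -0.27 to 0.60, adjusted p = 0.745), and 0.28 without that library.

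Whether DBTRG-05MG differed from the other lines was tested as the effect in DBTRG-05MG minus the mean effect of U87MG, T98G and U251MG. For EYA4 this difference was 0.72 (95% interval 0.08 to 1.37, unadjusted p = 0.0301, adjusted p = 0.570) and for DACH1 1.01 (0.00085 to 2.02, unadjusted p = 0.0498, adjusted p = 0.708), both from the limma model. Neither passed, so neither effect was shown to be particular to DBTRG-05MG. In this comparison limma called 0.998% of all genes tested and 0 members. At an unadjusted p under 0.05 it counted 870 of all genes tested (7.06%), these 2 members among them. For the other lines against the mean of the rest, 2.39% (U87MG), 1.56% (T98G) and 0.487% (U251MG) of all genes tested were called, and 0 members in each. At an unadjusted p under 0.05 there were 0 members as well by limma, edgeR, limma-voom and DESeq2. By limma 9.96% (U87MG), 12.7% (T98G) and 11.5% (U251MG) of all genes tested reached that level.

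The remaining members overlapped between variants in every line. EYA3 reached 9.48, 11.0 and 16.8 CPM in T98G “WWOX” against 7.03, 12.5 and 4.20 CPM in “Vec”, a log2FC of 0.72 (95% interval -0.02 to 1.45, adjusted p = 0.447), its largest value; in U87MG it was 0.39 (-0.35 to 1.12), in DBTRG-05MG 0.24 (-0.50 to 0.97) and in U251MG -0.21 (-0.94 to 0.53), the last turning to 0.26 without the library labelled “WWOX” replicate 2. For SIX4 the log2FC was 0.47 in U87MG (-0.30 to 1.25), 0.43 in U251MG (-0.35 to 1.20), -0.18 in T98G (-0.96 to 0.59) and -0.01 in DBTRG-05MG (-0.79 to 0.76). Single libraries moved SIX4 between 0.084 (without “WWOX” replicate 1) and 0.84 (without “Vec” replicate 1) in U87MG and between 0.065 (without “Vec” replicate 2) and 0.67 (without “Vec” replicate 1) in U251MG, where it was 0.53 without the library labelled “WWOX” replicate 2, and none of these passed. For SIX5 it was between 0.03 (DBTRG-05MG, -0.64 to 0.71) and 0.20 (U251MG, -0.48 to 0.87) in the 4 lines, the latter moving to 0.03 without the library labelled “WWOX” replicate 2. EYA1 was 0.08 in U87MG (-0.48 to 0.64) and 0.13 in T98G (-0.43 to 0.69), and EYA2 -0.05 in T98G (-0.74 to 0.63) and 0.17 in U251MG (-0.52 to 0.85). Most of these intervals reach past 0.6 in size, so changes of that order were not detectable here, and lines in which both variants were at the limit of 3 tags were given no fold.

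**Figure D4:**
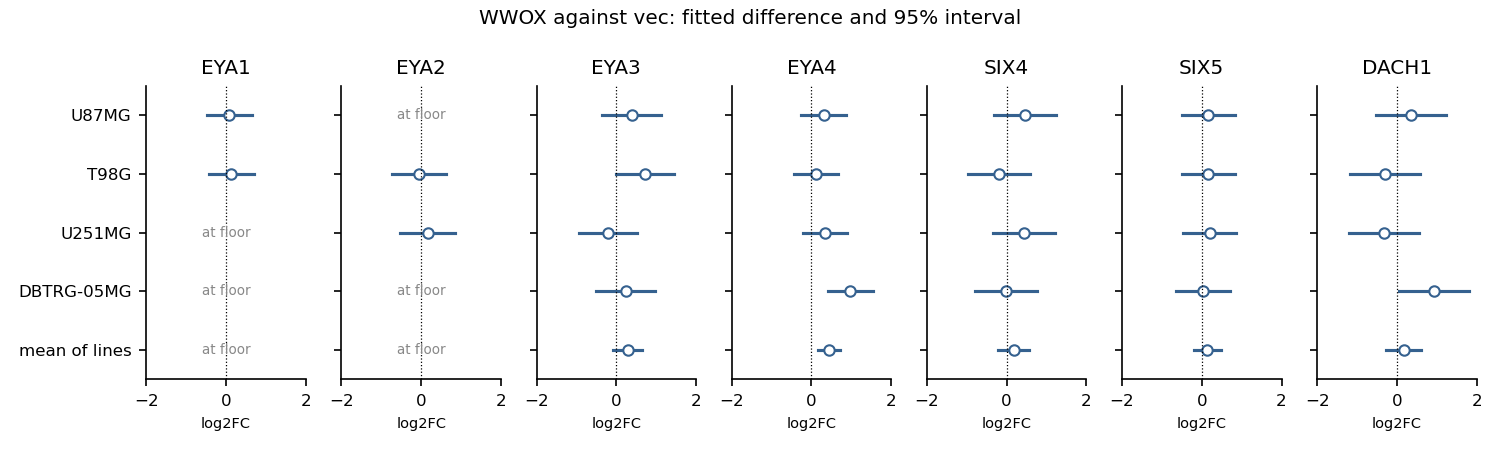
Fitted log2FC (x axis) of “WWOX” against “Vec” in each line and for the mean of the 4 line effects (y axis) for the 7 genes tested, with 95% intervals as bars. Open points mark an adjusted p of 0.05 or more, which holds for all; EYA4 and DACH1 in DBTRG-05MG (0.98 and 0.93) lie furthest to the right, and “at floor” marks values not plotted because a line held 3 tags or fewer in every library.

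Within the EYA family the share of EYA4 in DBTRG-05MG was 65.2% ± 5.66 in “Vec” and 76.3% ± 1.40 in “WWOX”, and that of EYA3 34.0% ± 5.92 and 23.5% ± 1.21, while the summed EYA level was 21.5 ± 2.78 and 39.3 ± 11.5 CPM. In the other lines the shares of EYA4 in “Vec” and “WWOX” were closer, at 56.6% and 57.2% in U87MG and 37.8% and 35.8% in T98G, both within the SD of the groups, and 76.2% ± 3.81 and 81.3% ± 3.08 in U251MG.

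Genes around the network were counted from 4 lists. Among paralogs outside the 8 genes SIX3 passed, in DBTRG-05MG. It held 3.86, 2.06 and 3.36 CPM in “Vec” and 5.60, 7.52 and 8.91 CPM in “WWOX”, all “WWOX” libraries above all “Vec” libraries, with a log2FC of 1.07 (SE 0.217, adjusted p = 0.0103). SIX3 reached 5 CPM in DBTRG-05MG “WWOX” alone and so entered the test through the group in which it was high, and the call was lost in 5 of the other settings and tools, with an adjusted p of up to 0.593 (edgeR), and without DBTRG-05MG “Vec” replicate 2 (0.0741) or “WWOX” replicate 3 (0.108).

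Of 16 upstream and partner factors 12 were tested. PAX8, a paired-box factor of thyroid and kidney, fell in U87MG from 273 ± 58.2 to 51.1 ± 23.9 CPM (log2FC -2.58, adjusted p = 0.000191), and its relative PAX2 fell from 18.8 ± 11.2 to 0.484 ± 0.191 CPM in DBTRG-05MG (log2FC -4.10, adjusted p = 4.08e-07). In U251MG PAX8 was higher in “WWOX”, with 10.5, 5.57 and 6.90 CPM in “Vec” and 23.2, 15.9 and 16.6 CPM in “WWOX”, which did not overlap, but the difference did not pass (log2FC 1.25, adjusted p = 0.191). No gene of this list was called higher in a line, 0 were called in T98G or U251MG, and the medians of log2FC were 0.23, 0.08, 0.37 and 0.09 (U87MG, T98G, U251MG and DBTRG-05MG, an order kept for the lists that follow), where the median of all genes tested was within 0.04 of 0 in every line. PAX2 also passed in the mean of the line effects (-0.84, adjusted p = 0.0147), a value that edgeR turned to 0.29 (adjusted p = 0.679) and that missed the threshold with a pseudocount of 0.1, limma-voom and DESeq2. This mean rests on DBTRG-05MG and is not a fall shared by the lines. U87MG and U251MG libraries held at most 2 PAX2 tags each. T98G had 2.35 ± 0.790 CPM in “Vec” and 3.49 ± 2.12 CPM in “WWOX”. Of 14 corepressors and coactivators 13 were tested. TLE1, a Groucho corepressor that can bind SIX-family proteins, rose in U87MG from 26.2 ± 2.97 to 85.2 ± 6.79 CPM (log2FC 1.63, adjusted p = 0.000441), and was the one gene of the lists called higher in the mean of the line effects (0.53, adjusted p = 0.0419, lost with edgeR at 0.0583 and with the filter on a mean of 5 CPM at 0.0517, and kept in 6 of 24 fits that left out a library). From “Vec” to “WWOX”, TLE1 went from 64.9 ± 15.6 to 75.4 ± 28.1 CPM in T98G and from 78.3 ± 14.8 to 116 ± 24.7 CPM in U251MG. In DBTRG-05MG it was lower, with 89.2 ± 11.8 and 78.5 ± 9.72 CPM, so the rise was not common to all lines. The medians of this list were 0.10, 0.03, 0.30 and -0.10. Among 13 genes known as targets of SIX-, EYA- or DACH-family proteins, 9 were tested and 0 passed in any line by limma, with medians of 0.05, -0.20, 0.10 and -0.01.

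The nearest tested genes on either side of each member were looked up. For “WWOX” against “Vec”, SLC2A10 and SIX3 were called, both in DBTRG-05MG, where limma called 1.03% of all genes tested. No neighbor was called in U87MG, T98G, U251MG or the mean of the line effects. SLC2A10, a glucose transporter gene 158277 bases from EYA2, rose in DBTRG-05MG from 2.17 ± 0.88 to 13.0 ± 1.10 CPM (log2FC 2.30, adjusted p = 0.000834, and 0.0568 with a separate model per line). EYA2 itself stayed at 0 in all 6 libraries of that line. SIX3, described above, is the neighbor of SIX2 at 59111 bases. SLC2A10 and SIX3 also passed for the effect in DBTRG-05MG minus the mean of the other lines (2.17, adjusted p = 0.00652, and 1.175, adjusted p = 0.0175). LACTB2, a neighbor of EYA1, passed for U87MG minus the mean of the other lines (-1.205, adjusted p = 0.0350). Within U87MG it did not pass (log2FC -0.85, adjusted p = 0.0905). Both neighbors of EYA4, MTCYBP4 (log2FC 0.03 in DBTRG-05MG, adjusted p = 1) and TBPL1 (-0.23, adjusted p = 0.958), and both of DACH1, PCDH9 (0.72, adjusted p = 0.743) and MZT1 (-0.15, adjusted p = 0.988), did not pass. The median log2FC in DBTRG-05MG was 0.06 over 635 other genes of chromosome 6 and -0.10 over 220 other genes of chromosome 13.

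The genes whose pattern over the 24 libraries was most like each member were ranked by Pearson correlation of log2 scaled CPM, as a description, since libraries of 1 line share their cells. EYA1 was most like PODNL1 (r = 0.978), MSC-AS1 (0.974), its neighbor at 236142 bases, and AHRR (0.969). EYA2 was most like TP53I11 (0.979), MSX2 (0.975) and GLDN (0.966), SIX5 like THORLNC (0.916), CITED2 (0.914) and CLSTN2 (0.911), and DACH1 like MAMDC2 (0.959), MCC (0.955) and ZDHHC21 (0.952). The evenly expressed members had weaker partners: LPIN2 (0.856), JARID2 (0.856) and SRGAP2C (0.843) for EYA4, UTP11 (0.882), SOAT1 (0.844) and NAA50 (0.843) for EYA3, and GRPEL2 (0.839), TMEM41B (0.790) and TET3 (0.763) for SIX4. Between members the strongest values were -0.911 for EYA1 and DACH1, -0.851 for SIX5 and DACH1, 0.822 for EYA2 and SIX5 and 0.771 for EYA1 and SIX5. In each of these genes T98G lay at an end of the lines. By “Vec” means, U87MG lay between T98G and the rest for EYA1 and DACH1, and U251MG did so for EYA2. EYA4 and DACH1 had r = 0.0906.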

How the data were processed

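CAGE-Seq libraries of 4 glioblastoma cell lines, each as “Vec” and “WWOX” cellular variants with 3 biological replicates, were grouped by their labels. The deposited values were CPM per gene, made by the authors from reads aligned to hg38 (the submitters' processing notes name STAR, SAMtools and limma 3.42); how tags were assigned to genes and strands is not given in the sources used here. Each CPM was a whole multiple of 1 tag in its library (100% of values within 0.01), so tag counts and depth (10756072 to 16953689 tags) were recovered; the table with all samples matched the 24 single-library files, and 0 sample columns were left unused. Identifiers of 43033 of 43037 genes matched GENCODE 44.

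The 12327 genes that reached 5 CPM in 1 library or more were scaled by TMM and fitted on log2(CPM + 0.5) with limma 3.58.1 (trend, 8 groups, 16 residual degrees of freedom, R 4.3.3), with two-sided tests, Benjamini-Hochberg adjustment over all genes tested and a threshold of 0.05; fold changes are on that scale, which understates changes of low genes. A group with at most 3 tags in every library was treated as at the limit. Folds against it are the mean of the higher group over the highest 3-tag CPM among its libraries. Single values were tested by exact two-sided permutation of labels within lines. The alternatives were pseudocounts of 0.1 and 1, a replicate block, a model per line, scaling by the median of ratios or no scaling, keeping all genes with a tag or those averaging 5 CPM or more, limma-voom, edgeR 4.0.16 and DESeq2 1.42.0 on recovered tags, and leaving out each library. Scripts were tested on simulated data. All 8 genes are named throughout; list genes are named where they passed in a “WWOX” against “Vec” comparison, besides the nearest tested neighbors and the 3 most correlated genes. The genes and lists were chosen with earlier results of these data known. Promoters came from RefSeq (GRCh38.p14), with 5 of the 8 genes matched.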

Additional observations from a re-analysis of the deposited data

How the results depend on the processing

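Of 63 log2FC values of the 8 genes, 640 refits under other settings kept direction and side of the threshold in 627, lost a call in 2, gained one in 3 and turned the direction in 8, and 1512 refits that left out a library did so in 1467, 4, 11 and 30. Same-numbered libraries did not deviate together throughout (correlations of -0.546 to 0.510), so the numbers were not taken as pairs. In T98G replicates 1 and 2 did so (0.427 and 0.510). In DBTRG-05MG higher values stood under unlike numbers: “Vec” 1 with “WWOX” 3 (0.638), 2 with 1 (0.613) and 3 with 2 (0.633). A pairing of that kind is not in the labels and was not tested. With the replicate block, members called between U87MG and DBTRG-05MG “Vec” were 2 in place of 1, EYA4 being added (adjusted p = 0.0390). DESeq2 also gave 2 there, with 5832 of the 12327 genes tested called. It called 1 member (EYA4) in DBTRG-05MG “WWOX” against “Vec”, with 129 genes called. The filter on a mean of at least 5 CPM, which leaves out EYA2 and SIX5, gave 2, 2, 3 and 1 members called for the “Vec” pairs T98G with U87MG, T98G with U251MG, T98G with DBTRG-05MG and DBTRG-05MG with U251MG. Some values turned direction, PAX2 in the mean of lines among them, and the cause was not tested. On CPM as deposited SIX4 was 0.046 in DBTRG-05MG “WWOX” against “Vec” and -0.15 for U87MG minus DBTRG-05MG “Vec”. edgeR gave -0.026 for EYA1 in U87MG, 0.029 for EYA2 in T98G and 0.29 for PAX2 in the mean of lines. DESeq2 gave -0.028 for EYA1 in U87MG and 0.048 for EYA2 in T98G, and limma-voom 0.0020 for SIX4 in DBTRG-05MG and -0.18 for DACH1 in the mean of lines.

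With 1 library left out, members called ranged from 0 to 1 in the mean of lines (0 with all libraries), from 2 to 4 between U87MG and U251MG “Vec” (4 with all) and from 1 to 4 between U87MG and DBTRG-05MG “Vec” (1 with all). Counts in these refits, and under the filter on a mean above, show how calls moved and were not set against all genes. In the pair of U87MG and DBTRG-05MG EYA4 passed without U87MG “Vec” replicate 2, T98G “Vec” replicate 3, U251MG “WWOX” replicate 1 or 2, DBTRG-05MG “Vec” replicate 2 or “WWOX” replicate 1 (adjusted p = 0.0249 to 0.0498). For “WWOX” against “Vec” the ranges that crossed 0 were, in U87MG, EYA1 -0.283 to 0.426; in T98G, EYA2 -0.471 to 0.336, SIX4 -0.335 to 0.0706, EYA4 -0.0445 to 0.218 and SIX5 -0.0428 to 0.429; in U251MG, EYA2 -0.123 to 0.416, EYA3 -0.584 to 0.255, SIX5 -0.168 to 0.428 and DACH1 -0.660 to 0.149; and in DBTRG-05MG, SIX4 -0.183 to 0.144 and SIX5 -0.115 to 0.183. Between “Vec” groups they were SIX4 -0.446 to 0.176 and SIX5 -0.448 to 0.148 for U87MG minus U251MG, SIX4 -0.263 to 0.359 for U87MG minus DBTRG-05MG, EYA3 -0.520 to 0.0315 for T98G minus U251MG and -0.0531 to 0.496 for T98G minus DBTRG-05MG, and SIX4 -0.0561 to 0.548 for U251MG minus DBTRG-05MG. At these depths a gene with 3 tags or fewer per library, such as SIX2, could not be compared.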
